A study of Brassica rapa subsp. pekinensis with 8 samples.

Results

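Gene expression after 35 days of vernalization was compared with that before it in line 50, a late-bolting inbred line of Chinese cabbage (Brassica rapa subsp. pekinensis), over all genes and by families beyond the FLC, SOC1 and cold genes. The members were chosen by their labels alone and are 6 of the 8 RNA-seq libraries analysed here. They are 3 libraries of line 50 at day 35 and 3 of line 50 at day 0, numbered 1 to 3 within each day. The other 2 libraries are of line 4004, 1 at each day, and entered only the shared fit and its filter on low counts. Day 35 plants were seedlings moved from a warm growth room with long days to a cold room with a shorter daily light period, and day 0 plants were seedlings taken before that move. No transgene, mutation or agent was used in either group. Cold, shorter days and greater plant age came together at day 35, so their parts cannot be told apart. Each library was made from several pooled plants of 1 inbred line. The sample labels give the tissue as leaf at the vegetative stage, and the methods of the study give shoots.

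Vernalization is the prolonged cold that makes many crucifers competent to flower. Apart from flowering, a plant kept in the cold grows slowly and remodels membranes, sugars and protective proteins. Families of paralogous genes carry most of these processes, and Brassica rapa often keeps several copies of a single Arabidopsis gene, so the copies are described together below.

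The tissue markers were measured first. The 11 photosynthesis markers of leaf (such as the Rubisco small subunit and light-harvesting genes) had summed normalized read counts of 856583 to 2557478 at day 35 and 935217 to 1911614 at day 0, and 0 were called in edgeR (0 higher and 1 lower at an unadjusted p under 0.05, 0 in DESeq2). Replicate 3 was the highest library on both days. None of the 12 root marker genes reached the test, and 6 of them had no reads in line 50. Total counts were 18.4 to 27.1 M at day 35 and 18.3 to 25.1 M at day 0. The libraries of replicate 3 stood apart from the others on both days. Their 10 most abundant genes took 15% of all counts at day 35 and 12.82% at day 0, against 6.65 to 8.56% in replicates 1 and 2. In a principal component analysis the first component (45.2% of the variance) separated replicate 3 from replicates 1 and 2, and the second (42.2%) separated the days. Counts of calls are therefore also given without replicate 3 for most families. The marker sets of floral organs and of seed and embryo had 0 calls in edgeR (0 higher and 1 lower in each at an unadjusted p under 0.05, 0 in DESeq2), with sums of 119 to 155 at day 35 and 118 to 164 at day 0 for 15 floral genes, and of 12 to 34 at day 35 and 25 to 143 at day 0 for 10 seed genes.

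A gene was called when its Benjamini-Hochberg adjusted p in the edgeR quasi-likelihood test was under 0.05 and its change at least 2-fold. Of 31191 genes tested, 696 rose and 528 fell at day 35. These calls are 2.23% and 1.69% of the genes tested, and 3.92% together, the background for family counts from this fit. With the replicate number as a block, 2120 of 28866 genes rose and 2090 fell (7.34% and 7.24%). Without replicate 3, 3277 of 31089 rose and 3075 fell (10.5% and 9.89%). DESeq2 called 1583 rises and 1371 falls (5.08% and 4.4%). Each of these shares is the background for family counts from its own fit. The block fit tested fewer members of many families, such as 83 SAUR and 108 NAC genes. No gene was called in edgeR without replicate 1 (2258 at an unadjusted p under 0.05) or without replicate 2 (2341), so every call below rests on both of these replicates. The median log2 fold change of all genes tested was 0.01. Of the 1224 genes called, 415 belonged to the 68 families defined from the deposited Arabidopsis descriptions, and 110 had no description. A few genes in each family were named by a rule of size, and further members were chosen after their values were seen. Where the groups of a called gene did not overlap, this follows largely from the call and is no separate support.

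**Figure D1:**
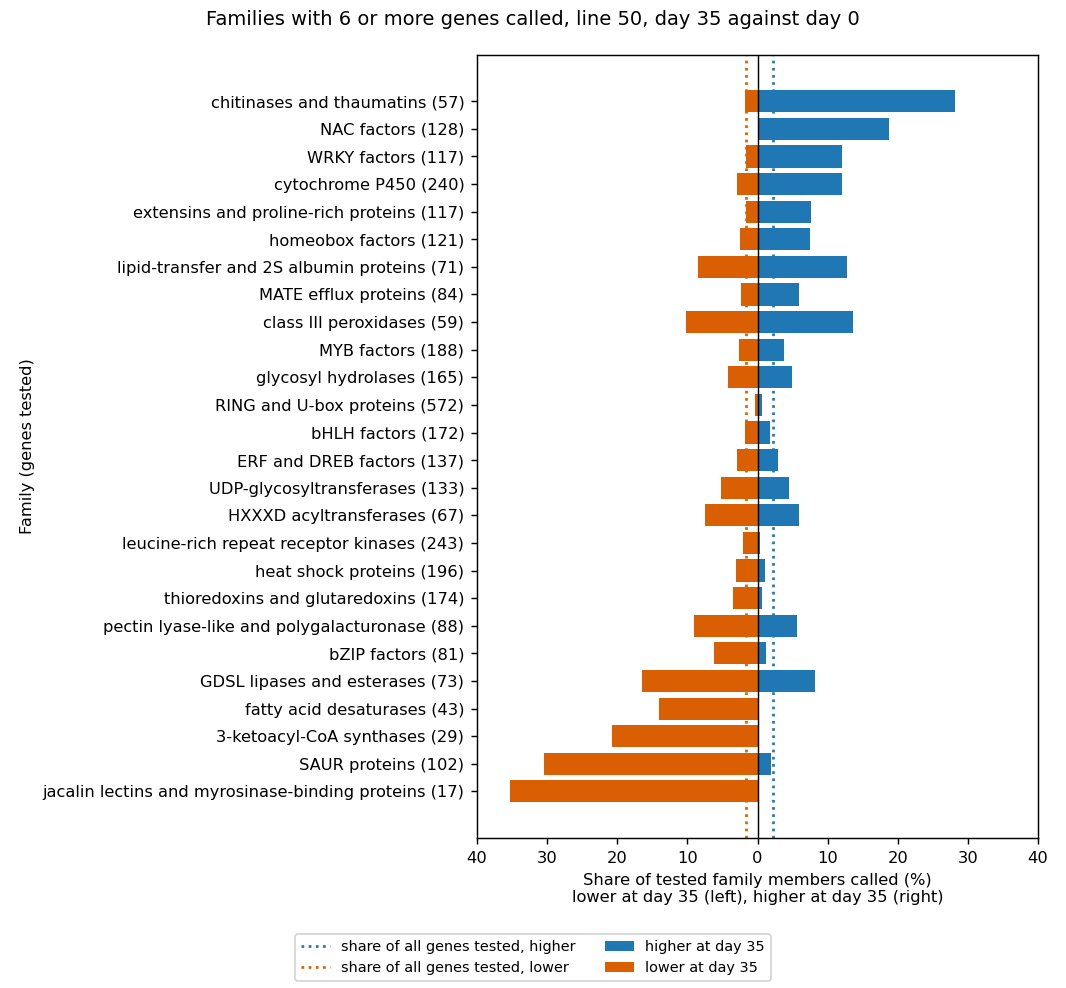
Share of the tested members called lower at day 35 (left, orange) and higher at day 35 (right, blue), in percent, for the 26 families with 6 or more genes called in line 50, with the number tested in parentheses. Dotted lines mark the shares among all genes tested (1.69% lower and 2.23% higher). Chitinases and thaumatins reached 28.1% higher, and jacalin lectins with myrosinase-binding proteins 35.3% lower.

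With all libraries SAUR genes held the most falls of the 68 families by number. By share, jacalin lectins and myrosinase-binding proteins held more (35.3%, against 30.4% of SAUR genes). Without replicate 3, pentatricopeptide repeat proteins held more falls by number (65, against 50 SAUR genes). Their family is larger, with 254 genes tested with all libraries, against 102 SAUR genes. SAUR proteins are small auxin-induced proteins, and those of the Arabidopsis SAUR19 group promote cell expansion. Of 102 genes tested, 31 fell (30.4%, against 1.69% of all genes) and 2 rose, with a median log2 fold change of -1. The block fit called 42 of 83 lower (50.6%, against 7.24% of all genes) and 1 higher. Without replicate 3, 50 fell and 3 rose, against 9.89% and 10.5% of all genes. Of the 31 falls given first, 25 were among the 31 tested counterparts of Arabidopsis SAUR19 to SAUR24. None of these counterparts rose, and their log2 fold changes ran from -2.84 to -1.6. Their summed normalized read counts were 710, 875 and 879 at day 35, against 5528, 3981 and 4709 at day 0. All 3 day 35 sums lay below every day 0 sum. The sequences of these copies were not examined, and how any reads shared between them were counted is not stated. The copies may therefore not be independent measurements. No 2 of the called SAUR genes had the same counts in all 6 libraries, but copies that share reads can also have unequal counts.

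Bra006432, a counterpart of SAUR20, had 15, 15 and 16 normalized reads at day 35, against 138, 104 and 90 at day 0. The groups did not overlap (log2 fold change -2.84 ± 0.32 SE, adjusted p = 0.011). Its adjusted p was 0.35 without replicate 1 and 0.31 without replicate 2, within a range of 2.8e-10 to 0.35 over the alternatives. Among the other 71 SAUR genes tested, 6 fell and 2 rose (median -0.5). Bra003044 was one that rose, with 143, 133 and 129 at day 35, against 45, 37 and 21 at day 0 (1.99 ± 0.33, adjusted p = 0.029). Aux/IAA and auxin response factors, which carry the nuclear auxin signal, had 0 calls among 66 in edgeR, with 9 higher and 5 lower at an unadjusted p under 0.05, and 3 higher in DESeq2. With the block 4 of them rose and 1 fell, and without replicate 3 5 rose and 3 fell. AUX1, the auxin influx carrier, fell in 2 of its 4 copies, and Bra005136 had 1072, 1144 and 924 at day 35, against 2389, 2107 and 1914 at day 0 (-1.01 ± 0.21, adjusted p = 0.047). With the block its log2 fold change of -0.99 lay just under the 2-fold limit, and 1 AUX1 copy was called, whereas all 4 fell without replicate 3.

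**Figure D2:**
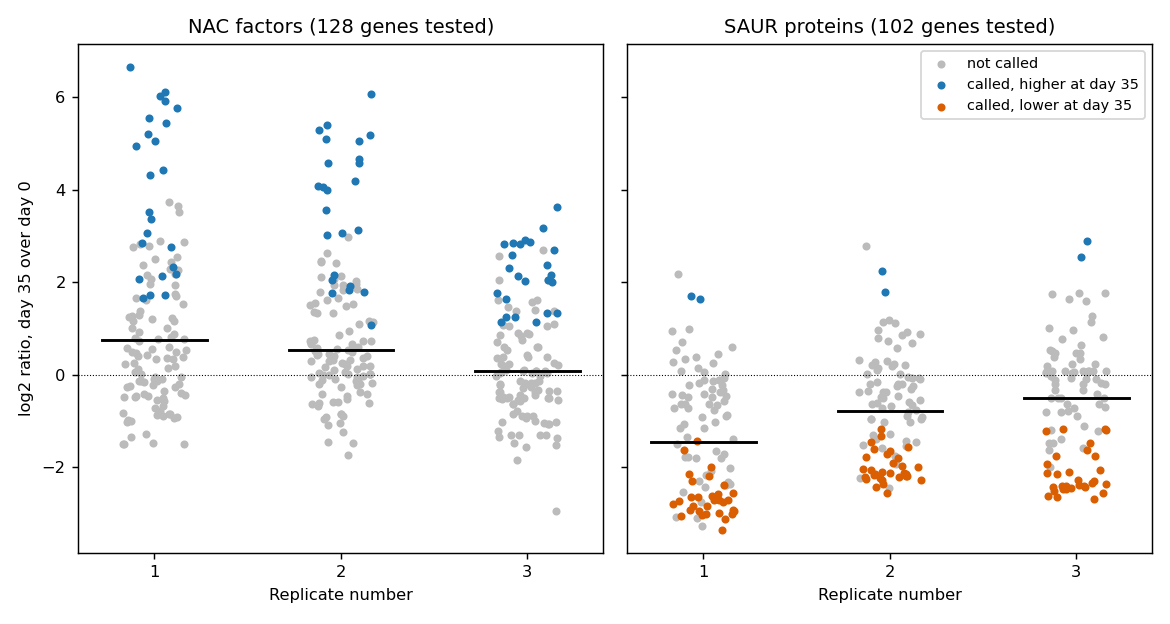
log2 ratio of day 35 over day 0 for each tested NAC factor (left) and SAUR gene (right) of line 50 within each replicate number, with genes called higher in blue, genes called lower in orange, the others in grey, and the family median as a black bar. The NAC medians were 0.75, 0.54 and 0.08 and the SAUR medians -1.47, -0.8 and -0.5 for replicates 1, 2 and 3.

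Families that loosen or build the primary cell wall had negative medians, with few falls in edgeR and larger shares of falls with the block. Expansins, which loosen walls during growth, had a median of -0.6 over 39 tested genes, but only 1 was called. It was the EXPA1 copy Bra024686, which rose, with 885, 746 and 1405 at day 35, against 151, 178 and 155 at day 0 (2.69 ± 0.35, adjusted p = 0.014). The other 2 tested EXPA1 copies were not called but fell with the block, so the copies of this gene moved in opposite directions. With the block, 12 of 36 expansins fell (33.3%, against 7.24% of all genes) and 1 rose, and without replicate 3 9 fell and 1 rose. Xyloglucan endotransglucosylases, which cut and rejoin wall xyloglucan, had 2 falls and 0 rises among 32 in edgeR (2 higher at an unadjusted p under 0.05, 0 in DESeq2), 6 falls and 1 rise with the block, and 9 falls and 3 rises without replicate 3. XTH9 was 1 of the 2 genes called, with 1613, 1871 and 2186 at day 35, against 6698, 6219 and 3797 at day 0 (-1.52 ± 0.3, adjusted p = 0.044, and 0.018 with the block, which called both XTH9 copies lower). Of 68 arabinogalactan and fasciclin genes, which encode cell-surface glycoproteins, 1 fell (1.47%, against 1.69% of all genes) and 0 rose in edgeR. Their median was -0.66, with 2 higher at an unadjusted p under 0.05 and 1 in DESeq2. The gene called was AGP16, with 244, 279 and 403 at day 35, against 1217, 1086 and 1254 at day 0 (-1.92 ± 0.3, adjusted p = 0.025). The block fit called 25 of 62 lower (40.3%, against 7.24% of all genes) and 2 higher. Without replicate 3, 31 fell and 2 rose, against 9.89% and 10.5% of all genes. Xylem markers had summed values of 590 to 1128 at day 35 and 1157 to 2203 at day 0 over 9 genes. The cellulose synthases of secondary walls among them overlapped between days. CESA7 had 316, 286 and 262 at day 35, against 497, 292 and 375 at day 0. Of the 9 genes 0 were called in edgeR (0 higher and 2 lower at an unadjusted p under 0.05, 1 lower in DESeq2). With the block 1 fell, and the part of these markers in the wall results was not tested.

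Pectin-degrading and extensin genes moved both ways. Among 88 pectin lyase-like and polygalacturonase genes, 8 fell and 5 rose (18 and 6 with the block, 25 and 11 without replicate 3). The falls included 3 copies of a pectate lyase (AT1G67750), and the rises 2 copies of AT1G02460, such as Bra033328 with 231, 264 and 150 at day 35, against 12, 19 and 21 at day 0 (3.62 ± 0.37, adjusted p = 0.0088). Extensins and other proline-rich wall proteins, which are cross-linked into a scaffold, rose in 9 of 117 (7.69%) and fell in 2, with 15 rises and 10 falls by the block fit and 16 rises and 17 falls without replicate 3. 4 copies of EXT3 were among the rises. The copy Bra003699 changed most, with 1476, 810 and 543 at day 35, against 32, 19 and 56 at day 0 (4.7 ± 0.58, adjusted p = 0.013). No library of day 0 reached the lowest day 35 value.

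Genes for surface lipids followed. The 3-ketoacyl-CoA synthases, which extend fatty acids to the very long chains of wax and suberin, had 6 falls and 0 rises among 29 in edgeR (20.7%, median -1.1, with 0 higher at an unadjusted p under 0.05 or in DESeq2), and 15 falls and 0 rises both with the block and without replicate 3. The KCS12 copy Bra011936 had 17, 24 and 18 at day 35, against 243, 261 and 147 at day 0 (-3.39 ± 0.35, adjusted p = 0.0088). The second KCS12 copy fell as well (-3.07). All 3 copies of KCS6, also named CER6, an enzyme of leaf wax synthesis, fell, and their summed values were 865, 764 and 772 at day 35, against 2200, 2080 and 1882 at day 0. KCS10, or FIDDLEHEAD, which limits fusion of epidermal surfaces, fell in 1 of 2 copies (-1.2) and in both with the block. Leaving out replicate 1 put KCS12 Bra011936 at an adjusted p of 0.26 and leaving out replicate 2 at 0.23 (6.1e-15 to 0.26 over the alternatives).

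GDSL lipases, a large family of esterases that includes cutin enzymes, fell in 12 of 73 (16.4%) and rose in 6 (20 and 7 with the block, 27 and 12 without replicate 3). Bra034459 was an example, with 130, 127 and 115 at day 35, against 1011, 842 and 859 at day 0 (-2.85 ± 0.22, adjusted p = 0.004). Against this direction, both copies of CDEF1, whose Arabidopsis product breaks down cutin, rose. Bra010306 had 470, 307 and 748 at day 35, against 1, 2 and 2 at day 0, where only 3 reads were counted over the group. The ratio was 447, with a counting interval of 153 to 2170 (95%, exact). Bra010304 had 214, 132 and 306 at day 35, against 1, 3 and 2 at day 0.

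Lipid-transfer and 2S albumin proteins, which are small secreted proteins that bind lipids, moved both ways, and several of those that rose had almost no reads at day 0. Of 71 tested, 9 rose (12.7%) and 6 fell (8.45%), with 18 rises and 10 falls by the block fit and 23 rises and 13 falls without replicate 3. Bra013621 had 1580, 1223 and 2878 at day 35, against 1, 1 and 2 at day 0, values that stand for no reads. Against a floor of 3 counts per library it was at least 547-fold higher (adjusted p = 0.0038). Bra013620 was at least 348-fold higher, with 855, 851 and 1950 at day 35, against 1, 1 and 2 at day 0 (adjusted p = 0.0038). The related genes Bra020846, Bra013622 and Bra020845 rose as well, with 3 reads or fewer over the day 0 libraries. Of the falls, Bra000778, a counterpart of AT4G12520, had 20, 30 and 55 at day 35, against 986, 1043 and 514 at day 0 (-4.58 ± 0.52, adjusted p = 0.011).

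Fatty acid desaturases, which set how fluid a membrane stays, fell in 6 of 43 (14%) and rose in none in edgeR (3 higher at an unadjusted p under 0.05, 0 in DESeq2), with 9 falls and 0 rises by the block fit and 10 falls and 0 rises without replicate 3. The change was concentrated in all 4 copies of AT3G15870, whose summed values were 20, 35 and 25 at day 35, against 3188, 3317 and 4189 at day 0. Bra027096 had 12, 19 and 13 at day 35, against 2082, 2215 and 3064 at day 0 (-7.36 ± 0.4, adjusted p = 0.0037). The other 39 desaturases had a median of -0.19 and 2 falls. Their summed values overlapped between days, at 46345, 45303 and 47545 at day 35, against 49928, 47120 and 43468 at day 0. SFR2, a glycosyl hydrolase that remodels galactolipids of the chloroplast envelope during freezing in Arabidopsis, rose in both copies. Bra029584 had 2341, 2202 and 2811 at day 35, against 252, 303 and 330 at day 0 (3.07 ± 0.28, adjusted p = 0.0063).

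**Figure D3:**
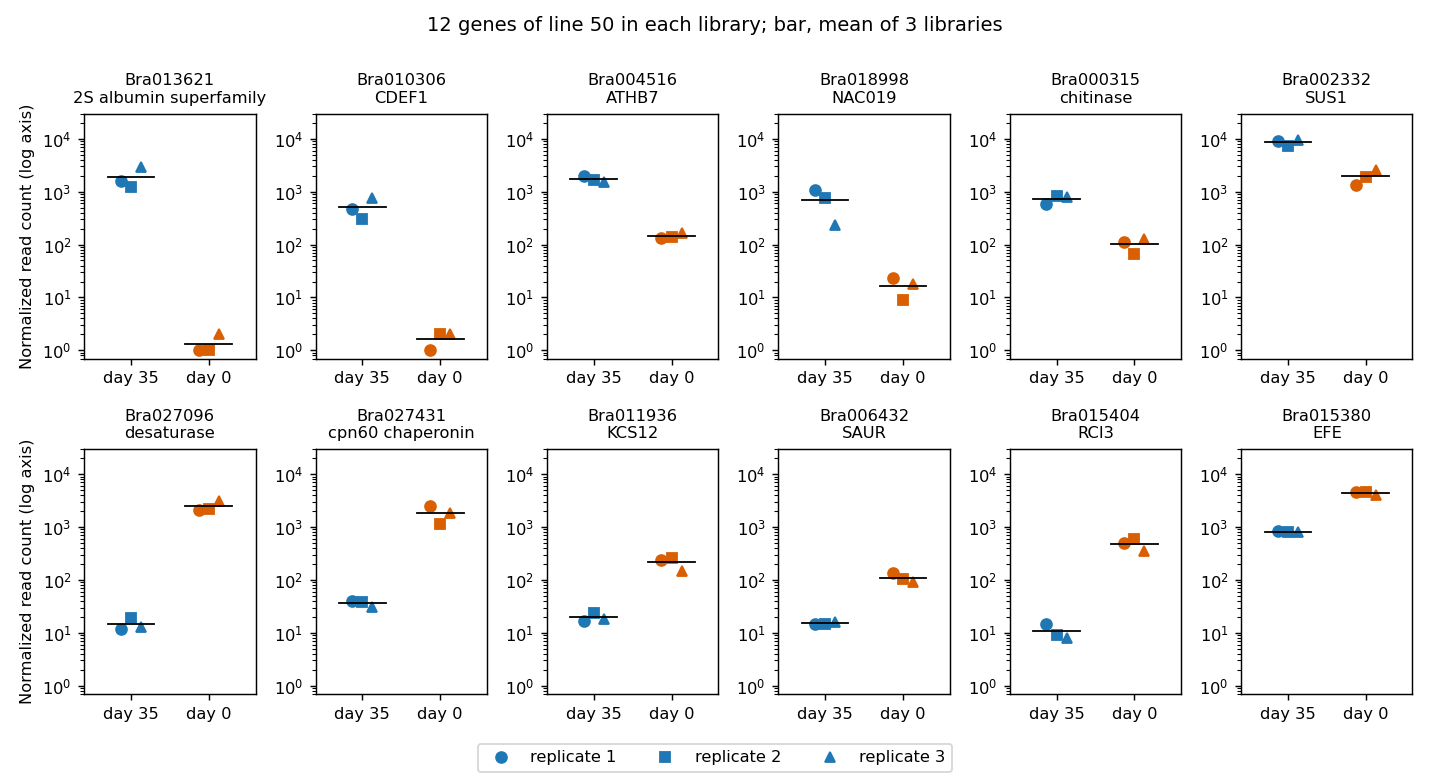
Normalized read counts (log axis) of 12 genes in each of the 3 libraries of line 50 at day 35 (blue, left) and at day 0 (orange, right), with circles, squares and triangles for replicates 1, 2 and 3 and a bar at the mean. In every panel the 3 libraries of day 35 lie on one side of the 3 libraries of day 0, as for the desaturase Bra027096 with 12, 19 and 13 at day 35 against 2082, 2215 and 3064 at day 0.

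Chitinases and thaumatin-like proteins, secreted proteins of pathogen defence that also build up in the cold in several plants, rose in a share well above the background. Of 57 tested, 16 rose (28.1%, against 2.23% of all genes) and 1 fell, with a median of 0.82. The block fit called 19 of 51 higher (37.3%, against 7.34% of all genes) and 2 lower. Without replicate 3 there were 26 rises and 3 falls. Of the rises, 7 were among 31 thaumatin-like genes and 9 among 26 chitinase genes. The thaumatin-like gene Bra025730 had 836, 642 and 500 at day 35, against 16, 16 and 57 at day 0 (4.48 ± 0.6, adjusted p = 0.016). Bra031074, a second counterpart of the same Arabidopsis gene, had 4891, 5437 and 8785 at day 35, against 344, 487 and 1039 at day 0 (3.35 ± 0.57, adjusted p = 0.03). The chitinase gene Bra000315 had 591, 817 and 790 at day 35, against 113, 65 and 128 at day 0 (2.86 ± 0.37, adjusted p = 0.014). None of these genes overlapped between days. The adjusted p of Bra025730 was 0.23 without replicate 1 and 0.22 without replicate 2 (1.7e-12 to 0.23 over the alternatives).

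The NBS-LRR and receptor kinase families had few calls in edgeR with all libraries. Of 149 NBS-LRR genes, the intracellular immune receptors, 0 were called in edgeR (6 higher and 9 lower at an unadjusted p under 0.05, and 1 higher in DESeq2), with 5 higher and 5 lower by the block fit and 9 higher and 6 lower without replicate 3. Cysteine-rich receptor kinases had 1 fall among 78 in edgeR, with 5 rises and 2 falls by the block fit and 8 rises and 2 falls in DESeq2. Without replicate 3, 30 rose and 2 fell, against 10.5% and 9.89% of all genes. Their median log2 ratio was 0.69 in replicate 1, 0.42 in replicate 2 and -0.77 in replicate 3. Leucine-rich repeat receptor kinases had 5 falls and 1 rise among 243 (30 and 7 with the block, 44 and 22 without replicate 3).

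Enzymes of secondary metabolism moved in both directions, with rises among cytochrome P450 genes. These oxidases make and break down hormones and defence compounds. Of 240 tested, 29 rose (12.1%) and 7 fell, with 49 rises and 30 falls by the block fit and 58 rises and 39 falls without replicate 3. Counterparts of CYP71B2 rose in 6 of 12 and of CYP72A15 in 4 of 9 (9 and 6 with the block). All 3 copies of CYP81F2, an enzyme of indole glucosinolate synthesis, rose (2.17 to 2.68). So did both copies of CYP707A4 and 1 of 2 copies of CYP707A1, which encode abscisic acid 8'-hydroxylases (1.32 to 2.07). The CYP71B2 copy Bra026937 had 832, 679 and 351 at day 35, against 69, 105 and 88 at day 0 (2.81 ± 0.36, adjusted p = 0.014). CYP78A8, Bra033278, fell, with 101, 71 and 167 at day 35, against 1030, 1274 and 654 at day 0 (-3.08 ± 0.43, adjusted p = 0.018).

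Of 133 UDP-glycosyltransferases, which attach sugars to hormones and metabolites, 6 rose and 7 fell (17 and 18 with the block, 22 and 22 without replicate 3). UGT74F2, which glucosylates salicylic acid in Arabidopsis, rose in 3 copies, with Bra000330 at 785, 619 and 753 at day 35, against 104, 92 and 87 at day 0 (2.95 ± 0.24, adjusted p = 0.0045). Glutathione S-transferases, detoxifying enzymes, rose in 4 of 72 and fell in 1, with 11 rises and 4 falls by the block fit and 27 rises and 3 falls without replicate 3. Jacalin lectins and myrosinase-binding proteins, partners of the glucosinolate-cleaving myrosinases, fell in 6 of 17 (35.3%) and rose in none (0 higher at an unadjusted p under 0.05 or in DESeq2), with 12 falls by the block fit and 11 without replicate 3. Their medians were -1.35, -1.22 and -1.86 in replicates 1, 2 and 3. The MBP2 copy Bra014309 had 327, 327 and 260 at day 35, against 1417, 1308 and 1711 at day 0 (-2.28 ± 0.25, adjusted p = 0.0096, 0.26 without replicate 1 and 0.24 without replicate 2, 4e-13 to 0.26 over the alternatives).

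Class III peroxidases, which cross-link or loosen walls with hydrogen peroxide, rose in 8 of 59 (13.6%) and fell in 6 (10.2%), with 11 rises and 14 falls by the block fit and 19 rises and 15 falls without replicate 3. Both copies of RCI3, a peroxidase named in Arabidopsis for its induction by cold, fell. Bra015404 had 15, 9 and 8 at day 35, against 500, 597 and 349 at day 0 (-5.38 ± 0.37, adjusted p = 0.0038). Bra032474 had 11, 7 and 9 at day 35, against 289, 342 and 178 at day 0 (-4.86 ± 0.38, adjusted p = 0.0042). Every day 35 value of both copies was below every day 0 value. Bra028761 rose, with 343, 157 and 228 at day 35, against 1, 1 and 2 at day 0, where 1 read was counted, for a ratio of 726 (counting interval 130 to 28700). ALPHA-DOX1, a dioxygenase that starts oxylipin synthesis and carries a peroxidase description, also rose (4.91 ± 0.55, adjusted p = 0.011). Among 22 Kunitz protease inhibitors, which block digestive proteases of herbivores, 3 fell and 2 rose (6 and 4 with the block, 7 and 5 without replicate 3), and Bra015999 had 19, 23 and 21 at day 35, against 803, 585 and 1799 at day 0 (-5.67 ± 0.58, adjusted p = 0.0088).

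NAC transcription factors, many of which act in leaf ageing and water stress, rose in 24 of 128 (18.8%, against 2.23% of all genes) and fell in none in edgeR (12 lower at an unadjusted p under 0.05, 2 in DESeq2). With the block 37 of 108 rose (34.3%, against 7.34% of all genes) and 4 fell. Without replicate 3, 53 rose and 5 fell. Both copies of ORE1, which promotes leaf senescence, rose (5.49 and 4.9), as did both of NAC047 (6.04 and 4.58) and all 3 of NAC055 (4.43 to 5.14). The block fit, which tested fewer genes, left out 1 copy of NAC047 (Bra031949) and 1 of NAC055 (Bra001596) and called the others higher. Bra018998, a copy of the abscisic acid and jasmonate responsive NAC019, had 1094, 754 and 237 at day 35, against 23, 9 and 18 at day 0 (5.36 ± 0.66, adjusted p = 0.013). Bra036327, a copy of NAC069, had 2630, 3116 and 727 at day 35, against 41, 73 and 99 at day 0 (4.9 ± 0.65, adjusted p = 0.015). Bra030820, a copy of NAC1, had 373, 391 and 530 at day 35, against 30, 45 and 81 at day 0 (3.07 ± 0.47, adjusted p = 0.022). The groups did not overlap in any of them, and replicate 3 was the lowest day 35 library for the NAC019 and NAC069 copies and the highest for the NAC1 copy. NAC019 had an adjusted p of 0.17 without replicate 1 and 0.18 without replicate 2 (9.4e-16 to 0.18 over the alternatives).

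WRKY factors, regulators of defence and stress genes, rose in 14 of 117 (12%) and fell in 2, with a median of 0.69. The block fit called 27 of 96 higher (28.1%, against 7.34% of all genes) and 4 lower. Without replicate 3 there were 56 rises and 6 falls. All 3 copies of each of WRKY25, WRKY28 and WRKY57 rose. Bra012614, a copy of WRKY28, which takes part in salicylic acid synthesis, had 249, 228 and 111 at day 35, against 19, 24 and 21 at day 0 (3.19 ± 0.37, adjusted p = 0.011). Bra038313, a copy of WRKY57, had 135, 124 and 118 at day 35, against 6, 7 and 19 at day 0 (3.6 ± 0.53, adjusted p = 0.021, 0.34 without replicate 1 and also without replicate 2, 8e-10 to 0.34 over the alternatives). The family median was 0.91 in replicate 1, 0.53 in replicate 2 and -0.11 in replicate 3.

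Homeobox factors rose in 9 of 121 (7.44%) and fell in 3 (19 and 9 with the block, 23 and 18 without replicate 3). ATHB7, a leucine zipper homeobox gene induced by abscisic acid and drought in Arabidopsis, rose in both copies. Bra004516 had 1967, 1685 and 1551 at day 35, against 135, 138 and 165 at day 0 (3.57 ± 0.25, adjusted p = 0.0038). All 4 copies of the meristem gene KNAT6 rose, of which Bra024592 and Bra024593 had equal values. Bra016348 had 54, 48 and 39 at day 35, against 1, 1 and 2 at day 0, which stand for no reads, and was at least 14.5-fold higher. Of the 8 shoot meristem marker genes 4 were tested and 3 rose. The homeobox genes STM and KNAT1, which maintain the shoot meristem, were among them. STM had 59, 52 and 66 at day 35, against 1, 2 and 2 at day 0, and KNAT1 had 81, 67 and 115 at day 35, against 1, 1 and 2 at day 0. The KNAT2 copy also rose, and the CLV1 copy did not pass the test (0.04). CLV3 had no reads, and the WUS copies had normalized values of at most 3. The 8 genes, with CLV1 as the largest term, summed to 633 to 1624 at day 35 and 720 to 902 at day 0, and their part in the KNAT6 result was not tested. Bulk tissue does not show which cells the KNAT6, STM and KNAT1 RNA came from. More such cells at day 35 and more RNA per cell cannot be told apart. GL2, which specifies trichomes and other epidermal cells, fell, with 11, 11 and 14 at day 35, against 81, 54 and 97 at day 0 (-2.7 ± 0.4, adjusted p = 0.022).

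Other regulator families had smaller shares of calls. Among 81 bZIP factors 5 fell (6.17%) and 1 rose (10 and 4 with the block, 11 and 9 without replicate 3), and the falls were both copies of bZIP34, both of bZIP61 and BZO2H3. Bra003320, a copy of bZIP61, had 100, 111 and 149 at day 35, against 995, 651 and 443 at day 0 (-2.5 ± 0.36, adjusted p = 0.02). Among 172 bHLH factors 3 rose and 3 fell (7 and 22 with the block, 9 and 26 without replicate 3), and SPCH, which starts the stomatal lineage, fell in 1 of 3 copies, with 58, 66 and 61 at day 35, against 164, 148 and 150 at day 0 (-1.3 ± 0.26, adjusted p = 0.046). All 3 SPCH copies were called lower with the block. Guard cell markers were lower in sum, with 1336 to 1504 at day 35 and 2218 to 3183 at day 0 over 9 genes. The largest term was the TMM copy Bra003549 (-1), while the 4 FAMA copies were at -0.57, -0.67, -0.1 and -0.12. Of the 9 genes 0 were called in edgeR (3 lower at an unadjusted p under 0.05, 1 in DESeq2) and 2 fell with the block. The part of these markers in the SPCH result was not tested. MYB factors had 7 rises and 5 falls among 188 (16 and 17 with the block, 35 and 17 without replicate 3). Factors of the TCP family, which control leaf growth, had 0 calls among 31 in edgeR (0 higher and 4 lower at an unadjusted p under 0.05, and 3 lower in DESeq2) and 7 falls both with the block and without replicate 3.

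Families of hormone metabolism had few calls in number, but they are small. Falls made up 6.25% of ACC synthases and oxidases and 2.86% of GH3 proteins, against 1.69% of all genes. They made up 7.14% of gibberellin oxidases and 5.88% of lipoxygenases and JAZ proteins. Rises made up 0%, 5.71%, 7.14% and 0% in the same order, against 2.23% of all genes. Each share above 0 rests on 1 or 2 genes. EFE, an ACC oxidase that completes ethylene synthesis, was the 1 gene called of 16 ACC synthases and oxidases and fell. It had 834, 809 and 822 at day 35, against 4692, 4598 and 4095 at day 0 (-2.42 ± 0.22, adjusted p = 0.0065), and replicate 3 lay close to the others on both days. Its adjusted p was 0.27 without replicate 1 and 0.26 without replicate 2 (5.3e-26 to 0.27 over the alternatives). Among 35 GH3 proteins, which conjugate hormones to amino acids, 2 rose and 1 fell (6 and 3 with the block, 6 and 8 without replicate 3). The rises were 2 copies of GH3.17, which conjugates auxin to glutamate (2.24 and 2.83). Of 14 gibberellin oxidases 1 rose and 1 fell (0 and 3 with the block, 1 and 3 without replicate 3). GA2OX1, an enzyme that inactivates gibberellins, rose, with 11, 15 and 11 at day 35, against 2, 2 and 2 at day 0 (adjusted p = 0.032), and was not among the genes of the block fit. GA20OX3, a gibberellin synthesis enzyme, fell, with 55, 73 and 49 at day 35, against 192, 183 and 124 at day 0 (-1.47 ± 0.29, adjusted p = 0.046). Lipoxygenases and JAZ proteins, of the jasmonate and oxylipin pathways, had 2 falls and 0 rises among 34 in edgeR (1 higher at an unadjusted p under 0.05, 0 in DESeq2), with 7 falls and 0 rises by the block fit and 7 falls and 2 rises without replicate 3. LOX2, a chloroplast lipoxygenase of jasmonate synthesis, was called in 1 of 6 copies, and all 6 fell with the block and without replicate 3. The called copy, Bra004059, had 1945, 1992 and 2558 at day 35, against 8711, 6211 and 15594 at day 0 (-2.24 ± 0.45, adjusted p = 0.047). The 6 copies summed to 17128, 18534 and 29363 at day 35, against 84765, 59460 and 189276 at day 0. Every day 35 sum lay below every day 0 sum, and replicate 3 was the highest library on both days. LOX5 fell as well (-1.58 ± 0.29, adjusted p = 0.035).

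Carbon metabolism and transport changed in a few abundant genes. Both copies of SUS1, a sucrose synthase, rose, and Bra002332 had 8983, 7323 and 9539 at day 35, against 1312, 1907 and 2593 at day 0 (2.15 ± 0.37, adjusted p = 0.032). BAM2, a beta-amylase by its description, had 2151, 1894 and 2003 at day 35, against 244, 201 and 412 at day 0 (2.81 ± 0.37, adjusted p = 0.014). All 3 copies of SS2, which builds amylopectin, fell (-1.83 to -1.39), and so did both copies of the vacuolar invertase VAC-INV, which splits sucrose (-1.55 and -1.39). ACHT4, a plastid thioredoxin, rose, with 2035, 2331 and 2576 at day 35, against 387, 354 and 405 at day 0 (2.62 ± 0.26, adjusted p = 0.0077). None of these genes overlapped between days. BAM2 had an adjusted p of 0.29 without replicate 1 and 0.25 without replicate 2 (3.9e-10 to 0.29 over the alternatives).

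Aquaporins, the membrane channels for water and small solutes, had a median of -0.68 over 48 genes, with 2 rises and 1 fall, 3 rises and 13 falls with the block, and 3 rises and 12 falls without replicate 3. The fall was PIP1;4, Bra019307, with 410, 404 and 554 at day 35, against 2853, 2592 and 3532 at day 0 (-2.7 ± 0.31, adjusted p = 0.011). The rises were PIP2;6, Bra000111, with 2591, 2820 and 3466 at day 35, against 1023, 830 and 1010 at day 0 (1.65 ± 0.27, adjusted p = 0.027), and the boric acid channel NIP5;1 (2.52 ± 0.51, adjusted p = 0.047). PDR7, an ABC transporter of the plasma membrane, rose in 3 of 4 copies (all 4 with the block), and Bra026156 had 5860, 6901 and 1241 at day 35, against 322, 600 and 432 at day 0 (3.34 ± 0.63, adjusted p = 0.038). Its replicate 3 value at day 35 was well below the other day 35 values but above every day 0 value. ABC transporters as a family rose in 5 of 122 and fell in none in edgeR (2 lower at an unadjusted p under 0.05, 1 in DESeq2), with 16 rises and 3 falls by the block fit and 24 rises and 3 falls without replicate 3. Phloem markers were lower, at 8672 to 10430 at day 35 and 13314 to 20196 at day 0 over 9 genes, and 2 copies of SEOR1, a sieve element protein, fell (-1.74 and -1.7), while the SUC2 copies, the sucrose loaders of companion cells, were not called (-0.32 and -0.17). Their part in the transporter results was not tested.

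Chloroplast, translation and division genes had few calls. Of 117 photosystem and light-harvesting genes 3 rose and 2 fell, near the background of 2.23% and 1.69%, with a median of -0.57. The 3 rises were the copies of ELIP1, a light-stress protein of the thylakoid, with Bra023798 at 710, 634 and 2428 at day 35, against 34, 23 and 99 at day 0 (4.65 ± 0.88, adjusted p = 0.039). Both falls encode parts of the oxygen-evolving complex. PSBQA, Bra013517, had 1544, 1703 and 2600 at day 35, against 11975, 10566 and 14655 at day 0 (-2.65 ± 0.37, adjusted p = 0.018), and PSBP-1 was called in 1 of 4 copies (-1.65). With the block 13 photosystem genes fell and 4 rose, and without replicate 3 28 fell and 4 rose. PSBQA had an adjusted p of 0.35 without replicate 1 and 0.33 without replicate 2 (2.9e-09 to 0.35 over the alternatives).

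Pentatricopeptide repeat proteins, which process organelle RNA, had 2 falls and 0 rises among 254 in edgeR (1 higher at an unadjusted p under 0.05, 0 in DESeq2), with a median of -0.46. With the block 30 fell and 0 rose, and without replicate 3 65 fell and 0 rose. CRR4, an RNA editing factor, was 1 of the 2 called, with 74, 75 and 44 at day 35, against 282, 249 and 160 at day 0 (-1.82 ± 0.32, adjusted p = 0.032). Ribosomal proteins had 0 calls among 527 in edgeR (11 higher and 9 lower at an unadjusted p under 0.05, and 4 higher in DESeq2), with 9 higher and 1 lower by the block fit and 8 higher and 6 lower without replicate 3. Their median log2 ratio was -0.09 in replicate 1 and -0.14 in replicate 2 but 0.88 in replicate 3. Core histones had 0 calls among 60 in edgeR, and 0 at an unadjusted p under 0.05, in DESeq2 and with the block. Without replicate 3, 6 fell and 1 rose, against 9.89% and 10.5% of all genes. The histone medians were -0.84, -0.44 and 0.34 in replicates 1, 2 and 3. Cyclins and cyclin-dependent kinases had 0 calls among 102 in edgeR (3 higher and 10 lower at an unadjusted p under 0.05, and 3 lower in DESeq2), with 11 falls by the block fit and 19 without replicate 3. The 10 dividing cell markers summed to 2069 to 2954 at day 35 and 2868 to 3858 at day 0, ranges that overlapped.

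**Figure D4:**
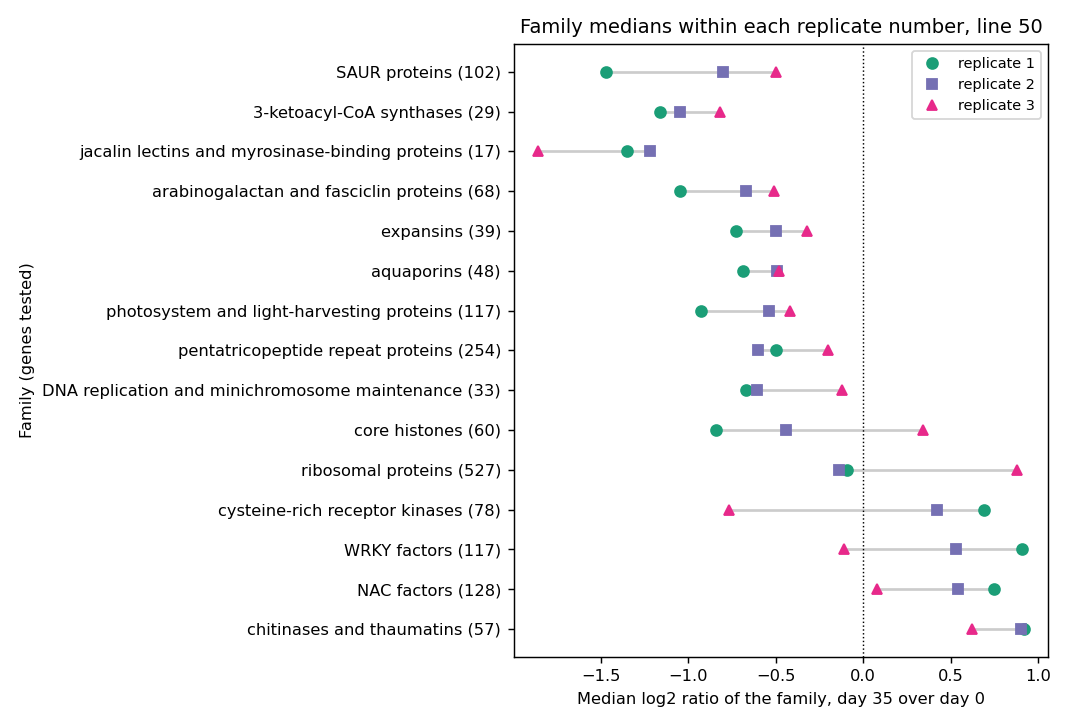
Median log2 ratio of day 35 over day 0 for 15 families of line 50 within replicate 1 (circle), replicate 2 (square) and replicate 3 (triangle), with the number of genes tested in parentheses. All 3 medians lie below 0 for SAUR genes (-1.47, -0.8 and -0.5), and replicate 3 lies on the other side of 0 from replicates 1 and 2 for core histones, ribosomal proteins, cysteine-rich receptor kinases and WRKY factors.

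Chaperones included large changes, while the median of the whole family was near 0. Of 196 heat shock protein genes 6 fell and 2 rose (20 and 11 with the block, 28 and 13 without replicate 3), with a median of -0.04. Among 49 genes described as HSP20-like chaperones, 5 fell (10.2%, against 1.69% of all genes) and 0 rose in edgeR. Their median was -0.6, with 14 falls and 2 rises by the block fit. Bra013566, a small heat shock protein-like gene, had 37, 29 and 46 at day 35, against 488, 662 and 266 at day 0 (-3.62 ± 0.41, adjusted p = 0.011), and a second copy, Bra020865, fell too (-3.43). HSFA1E, a heat shock transcription factor, rose, with 821, 831 and 666 at day 35, against 177, 187 and 238 at day 0 (1.94 ± 0.25, adjusted p = 0.014). The chaperonin gene Bra027431, which belongs to the cpn60 proteins that fold others inside plastids and mitochondria, had 40, 39 and 31 at day 35, against 2454, 1141 and 1868 at day 0 (-5.61 ± 0.39, adjusted p = 0.0038). Its groups did not overlap, and it had an adjusted p of 0.13 without replicate 1 and 0.067 without replicate 2 (1.6e-38 to 0.13 over the alternatives).

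Protein turnover families had few calls. Cysteine proteases had 0 calls among 53 in edgeR (0 higher and 1 lower at an unadjusted p under 0.05, and 0 in DESeq2), autophagy proteins 0 among 24 (4 and 1, and 0 in DESeq2) and proteasome subunits 0 among 69 (2 and 0, and 0 in DESeq2). RING and U-box proteins, mostly ubiquitin ligases, rose in 4 of 572 and fell in 2 (32 and 30 with the block, 56 and 47 without replicate 3), below the background in both directions. F-box proteins, which select targets for ubiquitin ligases, rose in 2 of 226 and fell in 3 (16 and 8 with the block, 20 and 18 without replicate 3). Among the remaining abundant genes, Bra026701, which has no description, had 1777, 1673 and 3163 at day 35, against 11, 6 and 6 at day 0 (8.15 ± 0.54, adjusted p = 0.0038), and MES18, a methyl esterase, had 48, 34 and 98 at day 35, against 1593, 1269 and 3869 at day 0 (-5.24 ± 0.72, adjusted p = 0.017). TBL26, of a family that acetylates wall polysaccharides, had 394, 488 and 1159 at day 35, against 6191, 4577 and 13838 at day 0 (-3.58 ± 0.69, adjusted p = 0.041). In MES18 and TBL26 replicate 3 was the highest library on each day, and no day 35 value reached a day 0 value.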

How the data were processed

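RNA of line 50 was measured at day 35 and day 0, 3 libraries each. The authors trimmed the reads, mapped them with Bowtie2 to a Brassica rapa gene set and counted them with a program that no source used here names. The deposited raw counts were tested as they stand. Their lowest value is 1 in every library, so 1 appears to have been added, and a value of 1 was read as no reads. The deposited normalized read counts (a score, scaled by the authors with DESeq and rounded) were used for levels. The authors' log2 ratios were not used. Of the 38008 gene IDs 0 were found in the RefSeq gene table, hence neither coordinates nor sequences are printed.

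The counts of all 8 libraries were fitted with edgeR 4.0.16 (R 4.3.3, TMM, filterByExpr, quasi-likelihood F test) in 1 model with 1 coefficient per group, with 4 residual degrees of freedom. The script was tested on simulated data. SE is the log2 fold change over the root of F. p-values measure the spread between replicates said to be independent. Same-numbered libraries deviated together (r = 0.446, 0.615 and 0.695 for numbers 1, 2 and 3), so counts with the block are given beside most families. Replicates 1 and 2 also correlated across numbers (r = 0.473 and 0.563), above the 0.446 within number 1. The values set replicate 3 apart and do not show pairing within numbers 1 and 2. Alternatives were DESeq2 1.42.0, other scalings and filters, line 50 alone, 1 subtracted from every count, the block and leaving out libraries.

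Families are patterns on the deposited Arabidopsis descriptions (32538 of 38008 genes have one), narrowed after descriptions were read. The patterns of cyclins, response regulators and ribosomal proteins were also narrowed after values were seen. Members and lists were chosen with earlier results of these data known. Named by rule were, per family, the up to 2 highest rises and falls among called genes averaging 50 normalized reads or more (where a family had none, its most-read member), and the 10 highest rises and falls over all genes at 500 or more, leaving out FLC, SOC1, VIN3, CBF, COR, KIN and RD29 genes. Copies of 1 Arabidopsis gene can share reads, and the kit is not stated to keep strand, so near-identical and overlapping genes are uncertain. Intervals and floors cover counting error only.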

Additional observations from a re-analysis of the deposited data

How the results depend on the processing

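The 1224 calls became 4210 with the replicate block (1141 shared), 2954 in DESeq2 (1202 shared) and 262 among genes averaging 500 normalized reads or more. Without single libraries or replicates the count ran between 0 and 6352. It was 0 without replicate 1 and without replicate 2, 6352 without replicate 3, 116, 85 and 3015 without replicate 1, 2 and 3 of day 35, and 48, 53 and 1088 without replicate 1, 2 and 3 of day 0. Each such fit has fewer samples, including the fit without replicate 3, which gave more calls. The cause of these differences was not tested. The other settings gave 971 to 1269 calls. Of 143 genes named by rule and called, none reversed, and 142 were still called with the block, 143 in DESeq2, 103 with library totals alone and 0 without replicate 1 or 2. The common biological coefficient of variation was 0.398, with 3 libraries per day.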
